A study of Mus musculus with 11 samples.

Results

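Il4ra, Gata3, Nfil3, Ecm1, Maf and Stat6 are genes of type 2 T cell responses, and their RNA was followed in T cells that had met foreign dendritic cells from different organs. They were chosen by symbol, as every probe set whose annotation listed 1 of these 6 symbols and no other, which gave 9 of the 20393 probe sets with 1 symbol and 6 of the 12393 genes measured. The 6 genes were named with earlier results of these data known. T cells of the B10.BR mouse strain were cultured for 4 days with dendritic cells of the C57BL/6 strain, a mismatch of major histocompatibility genes, and the RNA of the T cells was then measured on 11 single-colour arrays. The dendritic cells came from liver, called Liver here (3 arrays, numbers 2, 3 and 4), from the organs that the labels call MLN and PLN (3 arrays each, numbers 2, 3 and 4) or from spleen, called Spleen (2 arrays, numbers 3 and 4). All 4 groups share the T cell strain, the dendritic cell strain and the time, and no group had T cells without dendritic cells, so each organ was set against the others. The labels do not say how the T cells or dendritic cells were isolated, whether dendritic cells were removed before the RNA was taken, or whether mice were pooled.

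Type 2 T cells make interleukins 4, 5 and 13. Interleukin 4 binds a receptor whose alpha chain is encoded by Il4ra, and the receptor's kinases activate the transcription factor Stat6, which in turn raises Gata3, the zinc finger factor that defines the type 2 program. Maf encodes a leucine zipper factor that acts on the Il4 gene, and Nfil3 a basic leucine zipper factor that tunes cytokine genes in T cells. Ecm1 encodes a secreted glycoprotein, which in mouse type 2 cells acts on the exit of the cells from lymph nodes.

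Promoter sequences are shown because 3 of these genes moved together. RefSeq's table for the mouse build GRCm38.p6 held a promoter for 5 of the 6 genes, and Maf had no entry. Each line gives the 250 bases before the transcription start, 5′ to 3′ on the gene's strand, for the 3 genes that moved together and for Gata3. They lie at chr7:125552021-125552270 (plus strand) for Il4ra, chr13:52981040-52981289 (minus strand) for Nfil3, chr3:95739570-95739819 (minus strand) for Ecm1 and chr2:9878601-9878850 (minus strand) for Gata3. The start used is that of 1 transcript, and for Nfil3, Ecm1 and Gata3 it lies inside the annotated span of the gene. Capitals mark the motif matches described after the sequences.
Il4ra: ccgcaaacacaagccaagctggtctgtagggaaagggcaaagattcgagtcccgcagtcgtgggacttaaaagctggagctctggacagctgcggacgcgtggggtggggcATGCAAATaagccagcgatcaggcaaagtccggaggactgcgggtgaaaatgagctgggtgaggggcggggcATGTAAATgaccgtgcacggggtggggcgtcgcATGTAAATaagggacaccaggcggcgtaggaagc
Nfil3: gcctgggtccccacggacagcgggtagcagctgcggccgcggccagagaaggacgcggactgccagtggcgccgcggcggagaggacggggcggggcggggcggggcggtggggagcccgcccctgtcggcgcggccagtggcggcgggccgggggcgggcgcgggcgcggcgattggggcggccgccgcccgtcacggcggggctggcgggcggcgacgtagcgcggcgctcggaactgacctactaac
Ecm1: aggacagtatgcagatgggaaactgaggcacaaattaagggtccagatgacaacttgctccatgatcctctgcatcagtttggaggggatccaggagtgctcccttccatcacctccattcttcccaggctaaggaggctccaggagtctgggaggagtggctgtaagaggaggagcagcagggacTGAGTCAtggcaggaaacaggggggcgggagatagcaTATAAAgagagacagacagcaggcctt
Gata3: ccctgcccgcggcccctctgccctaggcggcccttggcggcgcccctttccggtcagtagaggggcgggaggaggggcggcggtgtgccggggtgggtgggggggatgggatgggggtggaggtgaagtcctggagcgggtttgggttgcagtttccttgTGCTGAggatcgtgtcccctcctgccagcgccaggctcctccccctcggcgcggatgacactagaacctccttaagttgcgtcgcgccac

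Motifs bound by the members' own proteins were searched on both strands in windows of 300 bases, the 250 before the start and the 50 after it. These were TTC and GAA with 4 bases between them for STAT6, AGATAA and TGATAA for GATA factors, TTATGTAA and TTACGTAA for NFIL3, and TGCTGA for Maf factors. Among the 5 promoters the only match was TGCTGA in Gata3, 90 bases before the start, and 19.5% of the 32851 promoters in the table held that motif. The STAT6 motif was in 6.95% of them, either GATA motif in 18.6% and either NFIL3 motif in 1.06%. Further motifs were picked after the sequences had been read. Il4ra held ATGNAAAT at 139, 67 and 34 bases before the start, the first of them as ATGCAAAT, the octamer of POU family factors, which overlaps ATGNAAAT by its definition. At least 1 ATGNAAAT was in 5.03% of promoters, and at least 3 in 0.0365%. Ecm1 held TGAGTCA, the site of AP-1 factors, 64 bases before the start (4.46% of promoters) and TATAAA 27 bases before it (12.4%). The Nfil3 window held none of these motifs and was 81.6% G and C, against 59.6% for Il4ra, 54.0% for Ecm1, 70.0% for Gata3, 56.8% for Stat6 and a median of 52.4% over all promoters. A match is a description of the letters only.

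Il4ra, Nfil3 and Ecm1 were lower after culture with dendritic cells of Liver than with those of MLN, while Gata3 and Stat6 passed no test between organs. Without regard to the array numbers, limma called none of these differences. The arrays of 1 number resembled each other across organs, and with the number as a block limma called all 3. Within each of the 3 numbers Liver was the lowest organ measured for each of the 3 genes, while the order of the other organs varied. Number 2 had no Spleen array. In number 4 Liver minus Spleen on the log2 scale was -0.09 for Il4ra, -0.14 for Nfil3 and -0.48 for Ecm1. Values are given first as deposited intensities per array, in the order of the numbers, and then as levels on the log2 scale as log2(intensity + 16) after quantile normalization.

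**Figure D1:**
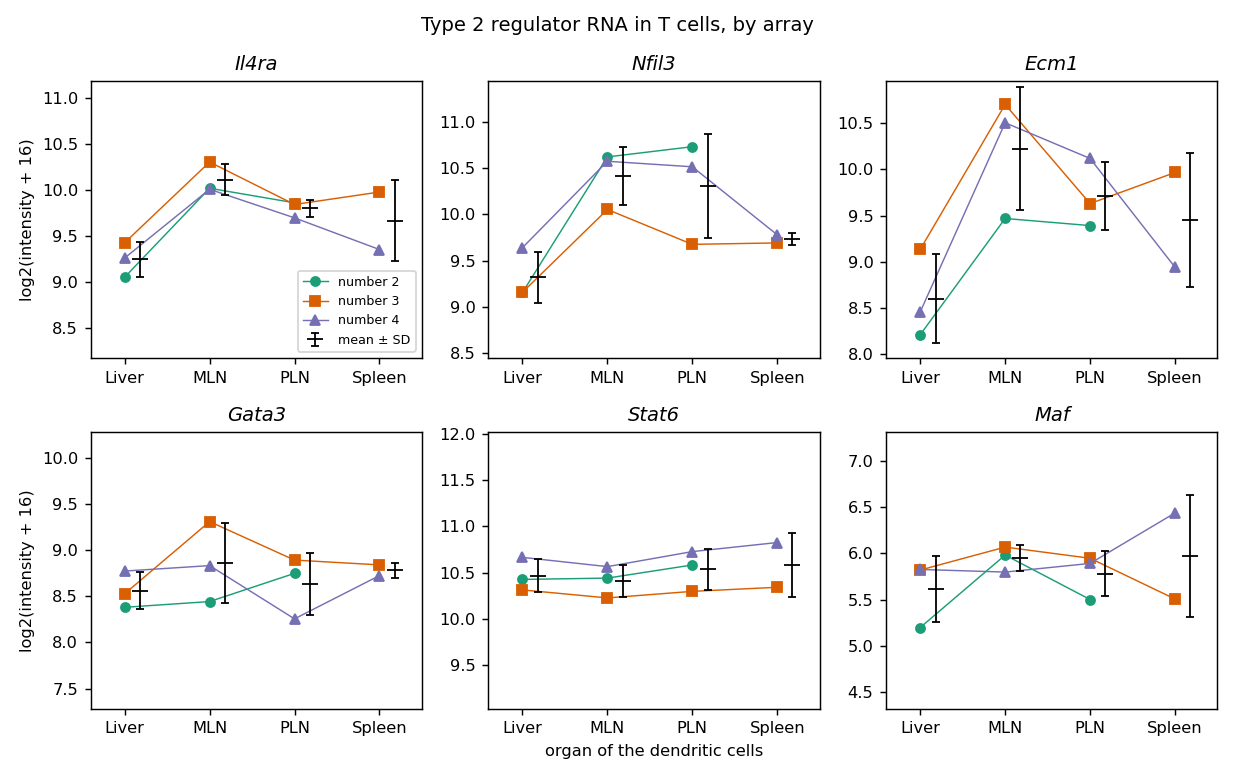
Level of each of the 6 genes, as log2(intensity + 16) after quantile normalization, on each of the 11 arrays, by organ of the dendritic cells. Lines join arrays of 1 number, black bars give the mean ± SD (n = 3, Spleen n = 2), and every panel spans the same height. For Il4ra, Nfil3 and Ecm1 each line is lowest at Liver, while for Stat6 the lines lie above one another with little slope.

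Il4ra lies on chromosome 7 (125552271 to 125579474, GRCm38.p6). Its brightest probe set had intensities of 528.8, 681.8 and 597.1 in Liver and 1016.4, 1239.7 and 1016.7 in MLN. In PLN it had 904.8, 897.4 and 812.8, and in Spleen 1007.6 and 644. The MLN arrays were above all other arrays, as for 0.457% of genes tested. The Liver arrays were below all MLN and PLN arrays, and on the log2 scale Spleen number 4 fell among the Liver arrays. Its level averaged 9.25 ± 0.19 for Liver, 10.11 ± 0.17 for MLN, 9.80 ± 0.09 for PLN and 9.67 ± 0.44 for Spleen (SD, n = 3, Spleen n = 2). The Liver minus MLN difference was -0.86 (SE 0.17, limma adjusted p = 0.173 without the block). With the block it was -0.86 (SE 0.11, adjusted p = 0.00128). Within numbers 2, 3 and 4 it was -0.96, -0.87 and -0.74, so that the level in Liver was 1.95-, 1.83- and 1.67-fold lower than in MLN.

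Nfil3 lies on chromosome 13 (52967209 to 52982878). It had intensities of 566.5, 561.1 and 776.8 in Liver and 1555, 1037.4 and 1536.8 in MLN. In PLN it had 1675.2, 801 and 1431, and in Spleen 830.1 and 864. The 3 Liver arrays were below all 8 others on both scales, as for 0.686% of genes tested. Number 3 gave the lowest array in both MLN and PLN. Its level averaged 9.32 ± 0.28 for Liver, 10.42 ± 0.32 for MLN, 10.31 ± 0.56 for PLN and 9.74 ± 0.06 for Spleen (SD, n = 3, Spleen n = 2). Liver minus MLN was -1.10 (SE 0.26, limma adjusted p = 0.309) without the block and -1.10 (SE 0.17, adjusted p = 0.00380) with it. Within numbers 2, 3 and 4 it was -1.47, -0.90 and -0.94.

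Ecm1 lies on chromosome 3 (95734147 to 95739876). It had intensities of 288.7, 549.7 and 325.7 in Liver and 684.7, 1652.3 and 1459.2 in MLN. In PLN it had 642.4, 771.2 and 1082.8, and in Spleen 1000.3 and 483.8. All 3 MLN arrays were above all 3 Liver arrays, but Liver number 3 was above Spleen number 4. Its level averaged 8.60 ± 0.48 for Liver, 10.23 ± 0.66 for MLN, 9.71 ± 0.37 for PLN and 9.45 ± 0.72 for Spleen (SD, n = 3, Spleen n = 2). Liver minus MLN was -1.62 (SE 0.38, limma adjusted p = 0.289) without the block and -1.62 (SE 0.23, adjusted p = 0.00213) with it. Within numbers 2, 3 and 4 it was -1.26, -1.57 and -2.05, which is 2.39-, 2.97- and 4.13-fold lower in Liver than in MLN.

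Across the 7436 genes tested, the Liver minus MLN comparison with the block called 4.13%, with 2.25% lower in Liver, and 3 of the 5 members tested were among these. Without the block it called 0.161% of genes and 0 members, and at an unadjusted p under 0.05 it held 4.79% of genes and 3 members. The arrays of Liver lay wholly below those of MLN for 4.14% of genes and for 3 of the 6 members. Liver was the lowest organ within all 3 numbers for 5.06% of genes and for the same 3 members. The members were chosen with earlier results of these data known, so these counts and shares are descriptions and not a test of the set. MLN was the highest organ in all 3 numbers for Il4ra and Ecm1. For Nfil3 it was highest in numbers 3 and 4, and PLN was highest in number 2. Fewer cells carrying a transcript and less of it per cell cannot be told apart in these bulk samples.

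Gata3 lies on chromosome 2 (9857078 to 9887953). It had intensities of 324.1, 357.2 and 413 in Liver and 330.9, 610.4 and 427.8 in MLN. In PLN it had 404.4, 454.9 and 299.3, and in Spleen 451.6 and 415.4. The organs overlapped throughout, and a single array, MLN number 3, stood above the rest. Its level averaged 8.56 ± 0.20 for Liver, 8.86 ± 0.43 for MLN, 8.63 ± 0.33 for PLN and 8.78 ± 0.08 for Spleen (SD, n = 3, Spleen n = 2). With the block, Liver minus MLN was -0.30 with a 95% interval of -0.70 to 0.10 (limma adjusted p = 0.467). The estimate of -0.86 for Il4ra's brightest probe set lies outside it, but the interval of that estimate, -1.10 to -0.62, overlaps it. Gata3 and Il4ra were not tested against each other.

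Stat6 lies on chromosome 10 (127642955 to 127660987). Its brighter probe set had intensities of 1361.1, 1272.2 and 1619.2 in Liver and 1368.1, 1170.3 and 1522.1 in MLN. In PLN it had 1513.7, 1249 and 1659.3, and in Spleen 1297.8 and 1778. In each organ number 3 was the lowest array and number 4 the highest, and the organs overlapped. Its level averaged 10.47 ± 0.18 for Liver, 10.41 ± 0.17 for MLN, 10.54 ± 0.22 for PLN and 10.58 ± 0.34 for Spleen (SD, n = 3, Spleen n = 2). With the block, Liver minus MLN was 0.06 with a 95% interval of -0.10 to 0.21 (limma adjusted p = 0.775), the narrowest interval among the 5 members tested.

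Maf lies on chromosome 8 (115703253 to 115706894) and was measured by 1 dim probe set. It had intensities of 20.2, 38.9 and 36.5 in Liver and 46.4, 52.1 and 33 in MLN. In PLN it had 27.9, 41.9 and 50.9, and in Spleen 32.3 and 83.6. All 11 arrays were below the mean intensity of 104.7 that a gene needed to be tested, so Maf was not tested, and its organs overlapped. Its level averaged 5.62 ± 0.36 for Liver, 5.95 ± 0.14 for MLN, 5.78 ± 0.24 for PLN and 5.97 ± 0.66 for Spleen (SD, n = 3, Spleen n = 2).

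For Nfil3, Ecm1 and the brightest probe set of Il4ra the mean of PLN was nearer to that of MLN than to that of Liver. A second probe set of Il4ra did not show this, with Liver minus PLN at -0.46 and MLN minus PLN at 0.49. With the block, Liver minus PLN was -0.55 for Il4ra (SE 0.11, limma adjusted p = 0.0350), -0.99 for Nfil3 (SE 0.17, 0.0250) and -1.11 for Ecm1 (SE 0.23, 0.0358). This comparison called 1.51% of genes with the block (1.09% lower in Liver), and no gene without it, where 3.70% of genes and these 3 members had an unadjusted p under 0.05. With the number as a random block it called 0.0538% of genes and no member. MLN minus PLN was 0.31 for Il4ra, 0.11 for Nfil3 and 0.51 for Ecm1, and none of the 3 passed (limma adjusted p of at least 0.680 with the block, which called 0.148% of genes, and 0.0134% without it). Their 95% intervals were 0.07 to 0.55, -0.25 to 0.47 and 0.02 to 1.01. At an unadjusted p under 0.05 stood 2 members, Il4ra and Ecm1, with the block (5.93% of genes), and 0 without it (1.29%). Liver minus PLN was also tested among 12228 probe sets with the block. Limma's adjusted p was then 0.0520 for Il4ra's brightest probe set, 0.205 for its second, 0.0342 for Nfil3 and 0.0531 for Ecm1.

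Spleen, with 2 arrays, lay between Liver and MLN for the same 3 genes and was not separated from either. Liver minus Spleen was -0.38 for Il4ra, -0.50 for Nfil3 and -0.61 for Ecm1 with the block, and MLN minus Spleen was 0.48, 0.60 and 1.02 for them in the same order. In limma no member passed in Liver minus Spleen or MLN minus Spleen, with the block or without it, and 0.215% of genes did in MLN minus Spleen with the block. At an unadjusted p under 0.05 the blocked fit held these 3 members in both, against 8.66% of genes in Liver minus Spleen and 13.9% in MLN minus Spleen. Without the block 0 members (1.76% of genes) and 2 members (3.51%) did so. PLN minus Spleen was 0.17, 0.49 and 0.50 for the 3 genes, and 0 members passed in either fit. There Nfil3 alone had an unadjusted p under 0.05 with the block (8.14% of genes), and none had one without it (1.56%).

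**Figure D2:**
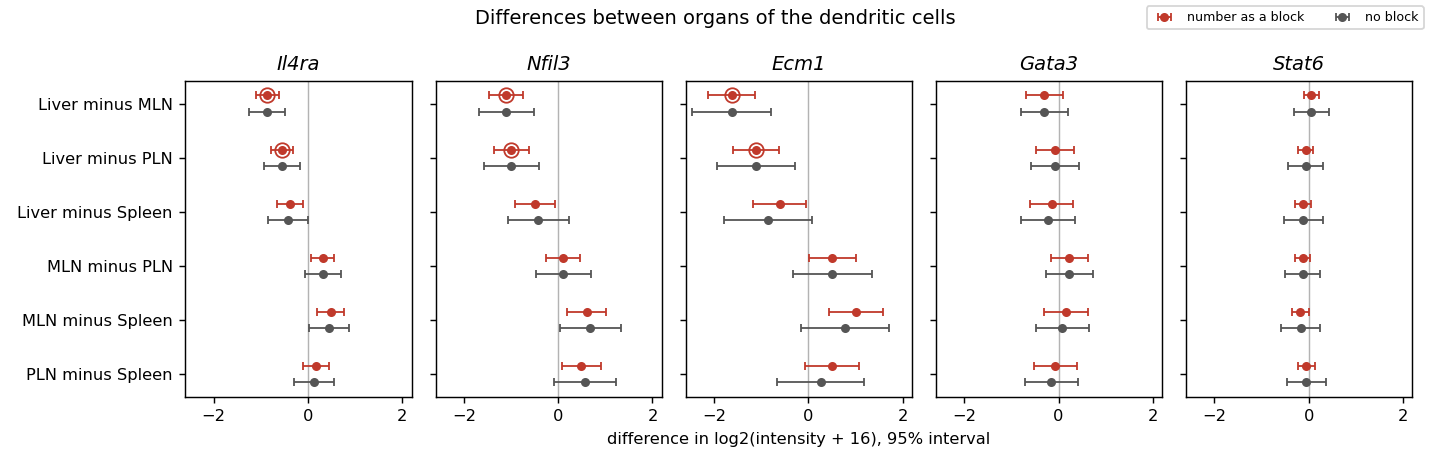
Differences between organs for the 5 members tested, in log2(intensity + 16), with 95% intervals from limma with the number as a block (red) and without it (grey). Rings mark adjusted p of at most 0.05, which only Liver minus MLN and Liver minus PLN reached, for Il4ra, Nfil3 and Ecm1 and with the block alone.

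From low to high, the organ means ran Liver, Spleen, PLN and MLN for Il4ra, Nfil3 and Ecm1 alike, but Spleen had no array of number 2. Within number 4 the 3 genes kept this order, and within number 3 they ran Liver, PLN, Spleen and MLN. By a second probe set of Il4ra the Spleen mean (9.31) was above that of PLN (9.28). No pair of neighbours in the order of the organ means passed in limma with the block. The pairs that passed were Liver with MLN and Liver with PLN. By organ means Gata3 ran Liver, PLN, Spleen and MLN, and Stat6 ran MLN, Liver, PLN and Spleen, and none of the 6 pairs passed for either.

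Set against the mean of the other 3 organs, Liver had lower values of the same 3 genes with the block: -0.60 for Il4ra (SE 0.09), -0.86 for Nfil3 (SE 0.14) and -1.12 for Ecm1 (SE 0.19). Limma's adjusted p was 0.00869, 0.0116 and 0.0129, in a comparison that called 2.14% of genes, with 1.39% lower in Liver. Without the block no gene was called, and 4.25% of genes and these 3 members had an unadjusted p under 0.05. MLN had higher values of Il4ra by 0.55 (SE 0.09, limma adjusted p = 0.0130) and of Ecm1 by 1.05 (SE 0.19, adjusted p = 0.0190) with the block. Nfil3 differed by 0.60 (SE 0.14) there and did not pass (limma adjusted p = 0.0634). The blocked comparison called 1.33% of genes, with 0.713% higher in MLN. Without the block it called 0.0941% of genes and 0 members, with 3 members and 3.70% of genes at an unadjusted p under 0.05. PLN and Spleen against the other organs called 0 members in either fit, and 0.0134% of genes for PLN with the block. With the block Nfil3 in PLN alone had an unadjusted p under 0.05 (8.12% of genes), and 0 members did in Spleen (8.70%). Without it 0 members did in PLN (1.21%) or Spleen (1.92%).

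A test of all 4 organs at once gave limma adjusted p of 0.00947 for Il4ra, 0.0133 for Ecm1 and 0.0141 for Nfil3 with the block, where 1.99% of genes were called. Ranked by p, these genes were at places 40, 48 and 52 among 7436. Without the block 0.0403% of genes and 0 members were called, and 2.56% of genes and 3 members had an unadjusted p under 0.05. With the number as a random block it called 0.686% of genes and the same 3 members. That fit also called 3 members in Liver against the other organs (0.632% of genes), 2 in MLN against the others (0.793%) and 3 in Liver minus MLN (2.47%). Gata3 and Stat6 had adjusted p of 0.731 and 0.526 with the block.

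The members split by whether the organ or the number of the array went with their variance. After the number, the organ held 77.8% of the variance of Il4ra, 68.3% of that of Nfil3 and 68.1% of that of Ecm1, against a median of 18.3% over all genes tested. For Stat6 the number held 84.7%, against a median of 51.9%, and the organ 11.7%. For Gata3 the number held 29.7% and the organ 17.5%, and for Maf 29.3% and 16.5%, which left over 50% of the variance of both to the single arrays (52.8% and 54.2%). The difference between numbers passed in limma for Il4ra, Nfil3, Ecm1 and Stat6 (adjusted p = 0.0393, 0.0255, 0.0140 and 0.000874) and not for Gata3 (0.197), in a test that called 48.1% of genes. What the numbers stand for is not given in the labels.

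The number moved the members in different directions. Over Liver, MLN and PLN, Stat6 had mean levels of 10.48 ± 0.09, 10.28 ± 0.05 and 10.65 ± 0.08 in numbers 2, 3 and 4 (SD, n = 3). Nfil3 was likewise lowest in number 3, at 9.63 ± 0.45, against 10.17 ± 0.88 in number 2 and 10.24 ± 0.52 in number 4. Ecm1 was lowest in number 2, at 9.02 ± 0.71, against 9.82 ± 0.80 in number 3 and 9.69 ± 1.09 in number 4. The means of Il4ra were 9.64 ± 0.52, 9.86 ± 0.44 and 9.66 ± 0.37.

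Within numbers the 3 genes that moved also followed each other from array to array. After the mean of each number was subtracted, Pearson's r over the 11 arrays was 0.95 between Il4ra and Nfil3, 0.94 between Il4ra and Ecm1 and 0.90 between Nfil3 and Ecm1. Gata3 stood at 0.47, 0.34 and 0.31 to Il4ra, Nfil3 and Ecm1, Stat6 at -0.24, -0.04 and -0.29, and Maf at 0.29, 0.29 and 0.14. These points share their arrays and the organ means, and the values are descriptions.

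All other genes tested were ranked by the same measure, and the 3 most like each member are named. For Il4ra they were Trgv1 (r = 0.98), a variable segment of the T cell receptor gamma chain, the AP-1 subunit Jun (0.98) and the repressor Gfi1 (0.96). For Nfil3 they were the T cell kinase Tec (0.98), the cell cycle inhibitor Cdkn1a (0.98) and Tnfrsf18 (0.98), a costimulatory receptor. For Ecm1 they were Selenos (0.97), a selenoprotein of the endoplasmic reticulum, the proenkephalin gene Penk (0.96) and the laminin chain Lamc1 (0.96). These 9, chosen for their likeness, had their lowest organ mean in Liver. With the number means left in, r was 0.47, 0.40 and 0.45 for the genes named for Il4ra, in the same order. It was 0.91, 0.82 and 0.40 for those of Nfil3 and 0.94, 0.77 and 0.27 for those of Ecm1. Jun had mean levels of 9.23 in Liver, 10.15 in MLN, 9.83 in PLN and 9.49 in Spleen, and Penk had 10.07, 11.14, 10.75 and 10.68 in the same organs. The nearest genes to Gata3 were Mrpl24 (0.96), Lta4h (0.92) and Rpl8 (0.91), those to Stat6 were Gria2 (0.93), Rock1 (0.89) and Hdhd5 (0.88), and those to Maf were Actr3 (0.89), Ubr3 (0.86) and Mr1 (0.86). With the number means left in, r was 0.13, 0.26 and 0.40 for the genes nearest to Gata3. Picked from all genes tested, the nearest genes thus had high r within numbers also for Gata3, which passed no test between organs.

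Il4ra had further probe sets that bear on its values. A second one had intensities of 385, 410 and 541.5 in Liver and 696, 936.3 and 961.5 in MLN. It had 660.4, 588.5 and 565.1 in PLN, and 712.2 and 565 in Spleen. Again all Liver arrays were below all MLN arrays. Tested among 12228 probe sets with the block, its Liver minus MLN difference was -0.96 (SE 0.15, limma adjusted p = 0.00866), beside -0.86 (SE 0.11, 0.00225) for the first. The third was dim, at 27.6 to 132.7, and differed by 0.19 between Liver and MLN. With the mean of the 3 in place of the brightest, Il4ra's Liver minus MLN difference was -0.54 and its limma adjusted p with the block 0.0945. The second probe set of Stat6 had intensities of 593.2 to 831.8 and a Liver minus MLN difference of 0.11 (SE 0.11, limma adjusted p = 0.733 with the block). In Liver, MLN and Spleen its number 3 was the lowest array and number 4 the highest. In PLN it had 766.9, 689.2 and 643 in numbers 2, 3 and 4. The share of variance given for Stat6 is that of its brighter probe set.

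Partners of these genes in the same pathways were described by lists chosen with earlier results of these data known. Of 13 tested genes of IL-4 receptor signalling, 1 was lower in Liver than in MLN with the block and 0 were higher, and the median difference was -0.03, against 0.01 over all genes tested. The 1 gene was Cish, a feedback inhibitor of cytokine signalling, with 11.13 ± 0.92 in Liver and 12.06 ± 0.42 in MLN and a difference of -0.93 (SE 0.18, limma adjusted p = 0.0160). Socs3, another feedback inhibitor, differed by -0.37 (SE 0.11, adjusted p = 0.0965), and the receptor kinase Jak1 by 0.19 (SE 0.07, 0.155).

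Of 18 tested transcription factors of type 2 differentiation, 1 was lower in Liver than in MLN and 0 were higher, with a median of 0.0051 (4.13% of all genes tested were called). It was Gfi1, a repressor that supports the growth of type 2 cells, with 9.21 ± 0.50 in Liver and 10.14 ± 0.25 in MLN (SD, n = 3) and a difference of -0.93 (SE 0.11, limma adjusted p = 0.000796 with the block). The AP-1 subunit Jund differed by -0.06 (SE 0.10, adjusted p = 0.828) and Irf4, a factor of T cell activation, by -0.24 (SE 0.09, 0.210).

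Of 8 tested type 2 cytokines and surface receptors, 3 were lower and 1 was higher in Liver than in MLN with the block, with a median difference of -0.48 (4.13% of all genes tested were called). Il13, a type 2 cytokine that also signals through the chain encoded by Il4ra, had 7.44 ± 1.76 in Liver and 8.98 ± 1.19 in MLN (SD, n = 3). Its difference was -1.54 (SE 0.30, limma adjusted p = 0.0140). Tnfrsf4, a costimulatory receptor, differed by -0.64 (SE 0.11, adjusted p = 0.0102), and the cytokine Il24 by -1.07 (SE 0.35, 0.128), which did not pass. Ccr4 at -0.81 (SE 0.16, 0.0169) and Icos at 0.38 (SE 0.08, 0.0253), named after their values were seen, were the other calls. Il4, Il5 and Il9 were among the 7 measured genes of this list below the level for testing.

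Of 13 tested regulators of the opposing type 1 response, 3 were higher and 1 was lower in Liver than in MLN with the block, with a median of 0.16 (4.13% of all genes tested were called). Il18r1, a chain of the interleukin 18 receptor, had 11.22 ± 0.39 in Liver and 9.36 ± 0.81 in MLN (SD, n = 3) and differed by 1.86 (SE 0.22, limma adjusted p = 0.000796). The chemokine receptor Cxcr3 differed by 0.81 (SE 0.16, adjusted p = 0.0169) and Il12rb1, a chain of the interleukin 12 receptor, by -0.70 (SE 0.14, 0.0194). The other higher gene, named after its values were seen, was Il18rap at 0.57 (SE 0.14, 0.0361). Of 5 tested genes linked to Ecm1 in type 2 cells none passed, with a median of -0.09: Il2ra differed by -0.23 (SE 0.07, adjusted p = 0.108), the exit receptor S1pr1 by 0.28 (SE 0.11, 0.205) and Ccr7 by -0.09 (SE 0.09, 0.706). Without the block 0 genes of the 5 lists passed in limma in Liver minus MLN.

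**Figure D3:**
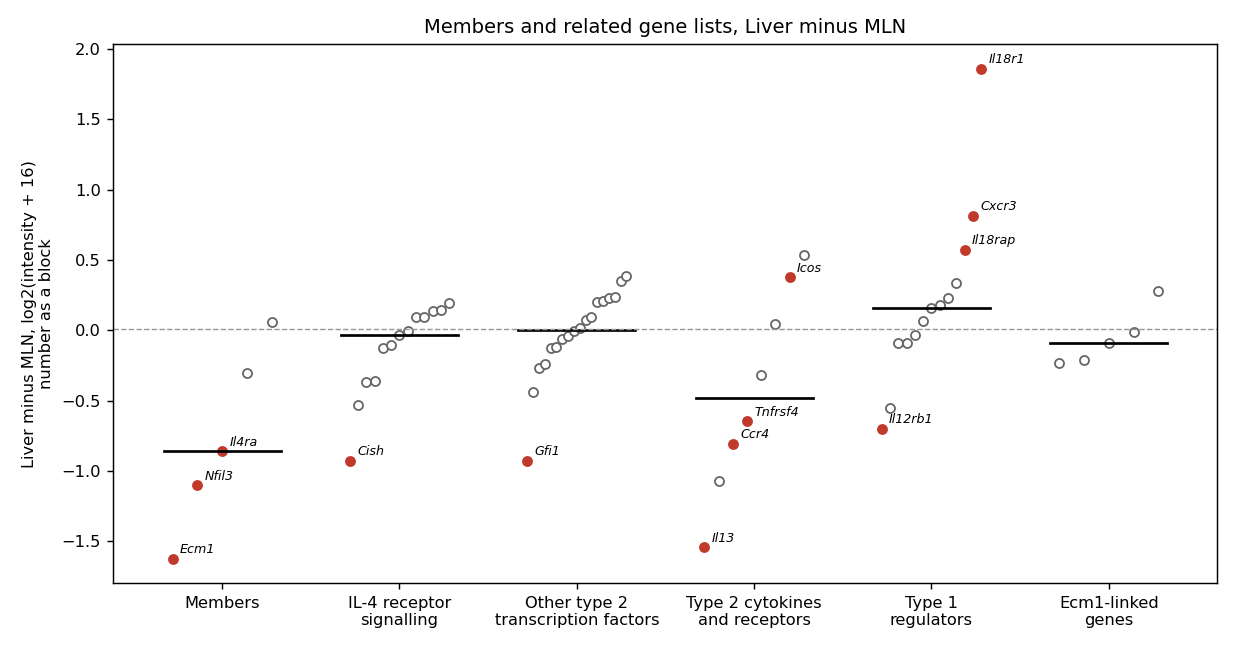
Liver minus MLN differences in log2(intensity + 16), with the number as a block, for the 5 members tested and 5 lists of related genes. Each point is a gene, filled red where limma's adjusted p was at most 0.05, the black bar is the list's median and the dashed line the median over all genes tested (0.01). The medians are -0.86 for the members, -0.48 for type 2 cytokines and receptors, -0.09 for genes linked to Ecm1, -0.03 for IL-4 receptor signalling, 0.0051 for type 2 transcription factors and 0.16 for the type 1 list.

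The arrays were checked for markers of the cells that could be in the cultures, with normalized intensities summed per array. The counts of markers passing are for Liver minus MLN with the block, which called 4.13% of all genes tested, 2.25% lower in Liver. T cell markers (7 of 8 measured) summed to 19197 to 25563 in Liver and 16999 to 23485 in MLN, and with the block 3 of 7 tested were higher in Liver and 0 lower. Dendritic cell markers (10 of 10 measured) summed to 6590 to 10037 in Liver and 7886 to 10749 in MLN, with 1 of 9 lower in Liver. In Liver the means of Ccr7, Ccl22, Cd74 and Batf3 were 1043 to 1947, and that of the class II gene H2-Aa was 651. Those of Itgax, the class II gene H2-Ab1, Flt3, Ccl17 and Zbtb46 were 102 to 247. Ccr7 is also on the list of genes linked to Ecm1 in type 2 cells, so the sum does not measure dendritic cells alone. Macrophage and monocyte markers (7 of 8 measured) summed to 2741 to 3750 in Liver and 2304 to 3103 in MLN, with 2 of 5 higher in Liver. Ctss made up most of this sum, with means of 2586 in Liver and 2095 in MLN. In the same order the means were 205 and 96 for Lyz2, 179 and 66 for Cd14 and 175 and 152 for Csf1r. Adgre1 had 107 and 95 and Cd68 147 and 160, and C1qa was at 10.3 or less on all arrays. For B cells (5 of 6 measured) the sums were 541 to 1057 in Liver and 758 to 891 in MLN, with 0 of 4 passing. Cells other than T cells can also express these genes: NK cell markers (4 of 5) summed to 968 to 2412 in Liver and 978 to 1897 in MLN, mast cell and basophil markers (6 of 6) to 666 to 1169 and 663 to 967, and ILC2 markers (3 of 5) to 683 to 1128 and 694 to 827, with 0 of 2 tested genes passing in each. In Liver the NK sum was mostly Eomes (mean 776) and Tyrobp (742), with Ncr1 at 75 and Klra8 at 49. Eomes is also on the type 1 list. The largest part was Kit (559) in the mast cell sum and Rora (408) in the ILC2 sum. Neutrophil markers (5 of 6) summed to 147 to 311 in Liver and 96.0 to 180 in MLN, and hepatocyte and stromal markers (6 of 6) to 382 to 629 and 406 to 673. No neutrophil gene was above the level for testing, and the 1 hepatocyte and stromal gene that was did not pass. The part of these cells in the differences of Il4ra, Nfil3 and Ecm1 was not tested.

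Single arrays decided some of these calls and not others. With the block, Liver minus MLN passed in limma for Il4ra, Nfil3 and Ecm1 whichever of the 11 arrays was left out, with adjusted p of at most 0.0134, 0.0390 and 0.0209. Liver against the other organs did not pass without Liver number 2, for Il4ra (adjusted p = 0.0784) and Nfil3 (0.0712), nor for Ecm1 without Liver number 2 or Liver number 4 (up to 0.129). MLN against the other organs did not pass for Il4ra without MLN number 2, 3 or 4 (up to 0.113), nor for Ecm1 without MLN number 3 or 4 (up to 0.200). Nfil3 passed there in 2 of the 11 fits. The Liver minus MLN differences ran from -0.95 to -0.77 for Il4ra, from -1.21 to -0.86 for Nfil3 and from -1.83 to -1.48 for Ecm1.

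**Figure D4:**
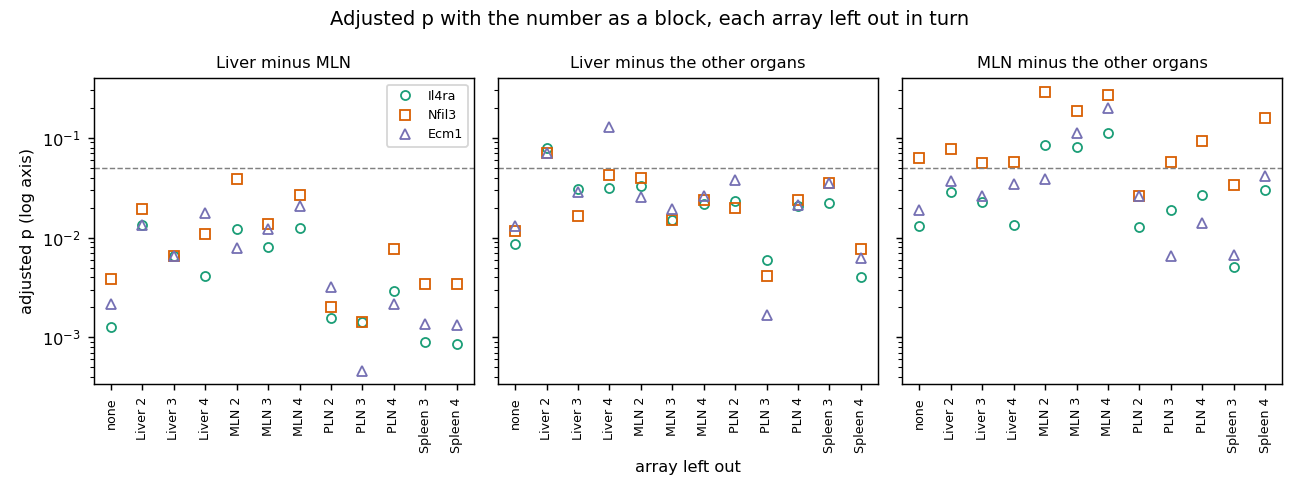
Limma's adjusted p (log axis) for Il4ra, Nfil3 and Ecm1 with the number as a block, with all arrays (none) and with each of the 11 arrays left out in turn; the dashed line is 0.05. In Liver minus MLN every point is below the line, while Liver against the other organs has points above it when a Liver array is left out. In MLN against the others Il4ra and Ecm1 have points above it when an MLN array is left out, and Nfil3 is above it with all arrays (0.0634) and in all but 2 of the fits with 1 left out.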

How the data were processed

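RNA of 11 T cell cultures was measured on single-colour arrays. The values deposited by the authors are linear intensities, 1 for each array and probe set, already scaled to a mean of 500.2 after trimming 2% at each end, as read from the values. The software behind these intensities is not given in the sources used here. All 22690 probe sets were transformed as log2(intensity + 16) and quantile normalized, and 64 control probe sets were then left out. Differences on this scale understate changes of dim genes. Symbols came from the platform annotation: 20393 probe sets had 1 symbol, 691 several and 1606 none, and 20364 symbols were brought to those of GRCm38.p6. The probe set with the highest mean stood for each of 12393 genes, and the 7436 genes in the upper 60%, above a mean intensity of 104.7, were tested, 5 of the 6 members among them. Arrays correlated at 0.966 to 0.985, their number limits the precision, and the labels do not name separate cultures, so p-values measure the spread between arrays, which may be technical.

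Limma 3.58.1 in R 4.3.3 (lmFit, eBayes with trend, Benjamini-Hochberg over all genes tested at 0.05) was fitted to all arrays with 4 organ means and no block (7 residual degrees of freedom), and with the number as a block (5) or a random block. The numbers come from the labels and pair the arrays: as deviations from the mean of their organ, same-numbered arrays correlated at 0.412 to 0.731 (15 pairs). The 30 pairs that differed in both number and organ correlated at -0.708 to 0.0843, and pairs within an organ were left out. Such deviations cancel within an organ, so positive values for same-numbered arrays push the other pairs down, and the ranges are not independent. Alternatives were the filter, pseudocount, normalization, choice of probe set, variance trend, block and each array left out. The members and lists were chosen with earlier results of these data known. Named genes were all members, up to 3 genes of smallest p in the blocked F-test from each list, and the 3 genes most like each member.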

Additional observations from a re-analysis of the deposited data

How the results depend on the processing

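Without a block, 0 members passed in limma in any comparison of organs under each alternative run, among them other filters, pseudocounts, normalizations and probe set rules and each of the 11 arrays left out. Pairing the arrays changed that: with the replicate block 3 members passed in the F-test over organs, 3 in Liver against the others, 2 in MLN against the others, 3 in Liver minus MLN and 3 in Liver minus PLN, and with a random block 3, 3, 2, 3 and 0. Of the 7436 genes tested, the replicate block called 148, 159, 99, 307 and 112 in these comparisons. The random block called 51, 47, 59, 184 and 4. Further alternatives were chosen after seeing the data. Probe sets tested one by one without the block gave 0 in each of the same 5 comparisons. With the block the 5 counts were 3, 3, 2, 3 and 1 with probe sets tested one by one, 3, 3, 3, 3 and 3 on intensities as deposited, 3, 3, 3, 3 and 2 with median-centred arrays (which added 1 in MLN minus Spleen), and 2, 2, 1, 2 and 1 with the mean of a gene's probe sets. The shares of all genes called in these further fits are not given here, so their counts describe the members alone. With the block and 1 array left out, the counts ran from 0 to 3 in the F-test, 0 to 3 in Liver against the others, 0 to 3 in MLN against the others, 3 to 3 in Liver minus MLN, 0 to 3 in Liver minus PLN and 0 to 1 in MLN minus Spleen. The F-test had 0 without Liver replicate 2 or MLN replicate 4 and 1 without MLN replicate 2. Liver minus PLN had 0 without Liver replicate 2 or 4 or PLN replicate 2 or 4, and 1 without MLN replicate 4. Genes called in Liver minus MLN ran from 73 to 321 over these fits, and in Liver against the others from 7 to 207. The F-test over replicate numbers passed 4 members, 2 with no filter on low values, 2 with no variance trend and 1 to 4 with an array left out. Of single differences only uncalled ones changed sign. For Stat6, Liver against the others (-0.04) was 0.013 with the mean of its probe sets, 0.0082 with the block too, and between -0.14 and 0.039 with an array left out, above 0 when that was Liver number 3 (0.036) or Spleen number 4 (0.039). Its Liver minus MLN difference (0.06) ran from -0.041 to 0.14 over arrays left out, below 0 when this was Liver number 4 (-0.041) or MLN number 3 (-0.035). For Gata3, MLN against the others (0.20) ran from -0.021 to 0.41, and the lowest was with MLN number 3 left out. The cause of these changes was not tested. Within 100 bases of the start, the Maf motif in Gata3 was again the only match to the members' own motifs (6.95% of promoters). Signal over background limits Maf, and 2 arrays limit Spleen.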
